A study of Mus musculus with 18 samples.

Results

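The transcriptomes of 2 kinds of primed pluripotent mouse cells, AFSCs and EpiSCs, were compared across all genes in 6 of the 18 RNA-seq samples of the series, taken as the 3 samples labelled AFSC and the 3 labelled EpiSC. AFSCs are ActA/bFGF stem cells, derived from blastocysts at E3.5 without feeder cells in N2B27 medium with Activin A and bFGF (FGF2). EpiSCs, epiblast stem cells, come from the epiblast after implantation; their medium, line and passage were not given in the sources used here. All samples were labelled wild type and 129S2/SvPasCrl, whereas the methods of the study derived AFSC lines from crosses of 129/sv females with reporter males of mixed background and the study names the same kind of cross for AFSCs, EpiSCs and EpiLCs it measured by RT-PCR. Whether the sequenced EpiSCs were those cells was not stated. The embryonic source, the line and the culture of the cells therefore cannot be told apart. Whether the 3 samples of a group came from separate lines was not stated. The p-values therefore measure the spread between samples of a group, estimated over all 18 samples of the series. They cannot be read as covering a spread between lines. The 3 samples of EpiLCs (epiblast-like cells), which carry the same strain and genotype labels, were used as a reference point.

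Primed pluripotent cells resemble the epiblast after implantation and before gastrulation. Activin/Nodal signalling through SMAD2 and SMAD3, together with FGF signalling through ERK, keeps them pluripotent, while Wnt, Nodal and BMP signals in the embryo direct epiblast cells into the primitive streak, from which mesoderm and endoderm arise. Cells of this kind express the core factors OCT4, SOX2 and NANOG, have low levels of the naive factors of the blastocyst, and express *Fgf5*, *Otx2* and *Zic2*.

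The AFSC libraries held 7046111 to 7490257 counts and the EpiSC libraries 6976376 to 9742624. AFSC replicate 1 stood apart, as 14.4% of its counts were of mitochondrially encoded genes, against 1.51% and 1.92% in the other AFSC samples and 3.11% to 4.59% in EpiSCs. Samples of a group were also compared by chi-square per degree of freedom over genes, which counting noise alone puts near 1. It was 93.9 and 86.9 for AFSC replicate 1 against replicates 2 and 3, and 11.2 for AFSC replicates 2 and 3. In EpiSCs it was 1.91 for replicates 1 and 3, nearest to counting noise, and 10.7 and 9.6 for the pairs with replicate 2. Mitochondrially encoded genes were included. Markers of primed and of pluripotent cells were read in each sample, which cannot check the labels AFSC and EpiSC against each other. Levels are normalized read counts per kb, that is, counts divided by the size factor of the library and by exonic length. *Fgf5* had 399, 621 and 586 in AFSCs and 708, 864 and 779 in EpiSCs, and *Pou5f1*, which encodes OCT4, had 7109, 8338 and 6787 in AFSCs and 8214, 7671 and 8381 in EpiSCs, so that both groups expressed them in every sample. Of 16901 genes tested with edgeR's quasi-likelihood test, 6659 (39.4%) differed between AFSCs and EpiSCs at an adjusted p below 0.05, of which 3655 (21.6%) were higher in AFSCs and 3004 (17.8%) were higher in EpiSCs. These shares are the background against which the counts of each gene group stand. For comparison, 7957 genes (47.1%) differed between AFSCs and EpiLCs and 8206 (48.6%) between EpiSCs and EpiLCs, in comparisons that share the EpiLC samples. Without AFSC replicate 1, 7148 genes differed between AFSCs and EpiSCs.

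When genes also had to differ by more than 2 log2 units and to exceed a mean log2 level of 3 in AFSCs or in EpiSCs, 994 remained, of which 621 (3.67% of those tested) were higher in AFSCs and 373 (2.21%) were higher in EpiSCs. In 977 of the 994, the samples of the 2 groups did not overlap. The choice of genes by fold and adjusted p largely ensures this, so it adds no support. EpiLCs were nearer to AFSCs on the log2 scale in 360 of the 621 genes and in 179 of the 373, so neither primed population was the closer to EpiLCs throughout. All log2 fold changes are given for AFSCs against EpiSCs, and adjusted p-values (Benjamini-Hochberg, over the 16901 genes) are those of edgeR's quasi-likelihood test. The median log2 fold change of all genes tested was 0.02. Where a group had no count of a gene, the fold was bounded with a floor of 3 counts over that group.

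**Figure D1:**
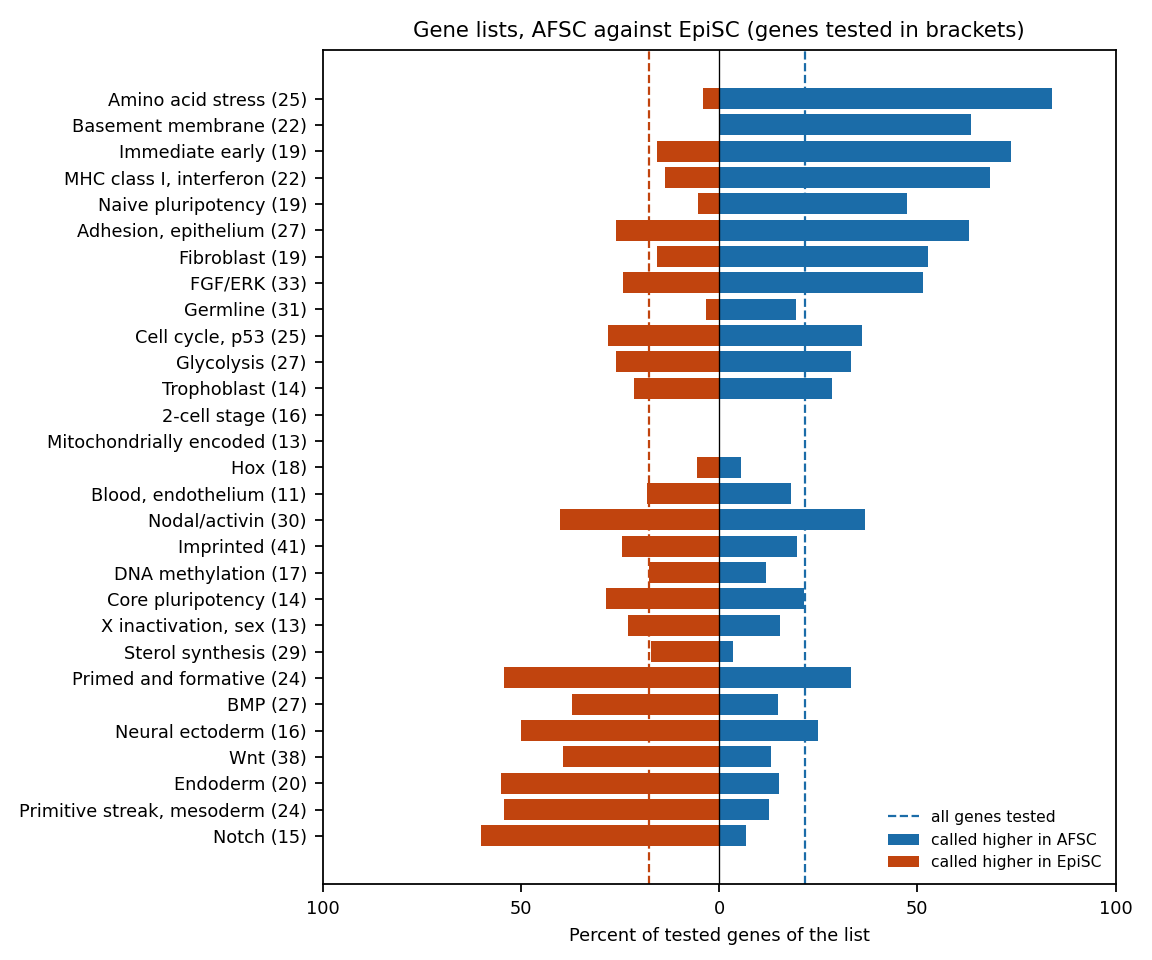
Percent of the tested genes of each of the 29 lists, without the 2 lists added later, that were called higher in AFSCs (blue, to the right) or higher in EpiSCs (orange, to the left) at an adjusted p below 0.05, with the number of genes tested in brackets. Dashed lines mark all genes tested (21.6% and 17.8%). The list of amino acid stress genes reached furthest to the right (21 of 25) and the Notch list furthest to the left (9 of 15).

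The core pluripotency factors divided. *Pou5f1* (OCT4; ENSMUSG00000024406, chromosome 17 from 35506018 to 35510772, plus strand of GRCm38) did not pass the test (log2 fold change -0.11 ± 0.19 (SE), adjusted p = 0.698). *Sox2*, the HMG-box partner of OCT4 (ENSMUSG00000074637, chromosome 3 from 34650405 to 34652461, plus strand), had normalized read counts per kb of 709, 555 and 429 in AFSCs and 85.5, 67.3 and 75.6 in EpiSCs, and every AFSC sample lay above every EpiSC sample (log2 fold change 2.91 ± 0.20 (SE), adjusted p = 1.29e-09). *Utf1*, a chromatin-bound factor of pluripotent cells, had 1892, 2449 and 1727 in AFSCs and 163, 184 and 167 in EpiSCs (log2 fold change 3.57 ± 0.23 (SE), adjusted p = 5.74e-10), again without overlap. *Nanog* was lower in AFSCs, with 807, 669 and 738 in AFSCs and 1619, 1283 and 1534 in EpiSCs (log2 fold change -0.99 ± 0.16 (SE), adjusted p = 6.06e-05). Of the 14 core genes, 3 were higher in AFSCs, 4 were higher in EpiSCs and 7 did not pass the test, with a median log2 fold change of 0.04. *Tdgf1*, a co-receptor of Nodal, was also higher in AFSCs (log2 fold change 0.63, adjusted p = 0.00623), though with an adjusted p of 0.0644 without AFSC replicate 3. *Sall4* (log2 fold change -0.73, adjusted p = 9.48e-05), *Zfp281* (log2 fold change -0.67, adjusted p = 0.00388) and *Foxd3* (log2 fold change -0.58, adjusted p = 0.00243) were higher in EpiSCs. *Lin28a*, *L1td1* and *Trim71* had log2 fold changes of -0.16, 0.19 and 0.25 and did not pass the test, although *Trim71* did in DESeq2 (adjusted p = 0.0207).

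Genes of naive pluripotency that differed were mostly higher in AFSCs. Of 19 such genes tested, 9 were higher in AFSCs, 1 was higher in EpiSCs and 9 did not pass the test. The exception was *Tbx3*, with 0, 0.175 and 0.156 in AFSCs and 0.792, 1.2 and 1.44 in EpiSCs, which was higher in EpiSCs at a level near 1 (adjusted p = 0.00019). *Gdf3*, a TGFβ-family ligand, had 68.4, 72.1 and 92.8 in AFSCs and 3.25, 3.27 and 1.18 in EpiSCs (log2 fold change 4.93 ± 0.30 (SE), adjusted p = 2.63e-10). *Klf2*, a Krüppel-like factor of the naive network, had 104, 77.7 and 74.6 in AFSCs and 14.9, 13.8 and 16 in EpiSCs (log2 fold change 2.52 ± 0.24 (SE), adjusted p = 9.34e-08), and *Klf5* (log2 fold change 2.90, adjusted p = 0.000615), *Klf4* (log2 fold change 1.26, adjusted p = 7.03e-05), *Fgf4* (log2 fold change 2.40, adjusted p = 2.47e-10) and *Fbxo15* (log2 fold change 2.94, adjusted p = 9.31e-09) moved in the same direction. *Tfcp2l1* reached 3.57, 5.15 and 6.48 in AFSCs and 1.25, 1.59 and 1.72 in EpiSCs (log2 fold change 1.74, adjusted p = 0.000254). *Esrrb*, with 0.668, 2.68 and 2.74 in AFSCs and 1.3, 0.583 and 0.947 in EpiSCs, did not pass the test (adjusted p = 0.053), but did so in DESeq2 (adjusted p = 0.0285), without AFSC replicate 1 (adjusted p = 0.0083) and without EpiSC replicate 1 (adjusted p = 0.0496). *Tcl1* was at 0 in all 6 samples, *Prdm14* was at 0 in the AFSC samples and at 0.512, 0.344 and 0.372 in EpiSCs (adjusted p = 0.112), and *Zfp42* (Rex1) was at 1.43, 0.615 and 0 in AFSCs and at 0 in EpiSCs (adjusted p = 0.0741, or 0.0382 without AFSC replicate 3). These 3 genes had too few counts for a firm call at this depth. Across the list, the summed level was 363 to 398 in AFSCs and 59.1 to 72.8 in EpiSCs. The median log2 fold change of the 19 genes was 1.41. It was 1.74 over the 13 genes above the floor, with genes at 0 in a group set to their bound. The other genes had at most 3 counts in each group, too few to be called.

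Genes of the formative and primed states went both ways. Of 24 tested, 8 were higher in AFSCs, 13 were higher in EpiSCs and 3 did not pass the test (median log2 fold change -0.49). *Pou3f1* (OCT6), a POU factor of the early postimplantation epiblast, had 212, 282 and 225 in AFSCs and 30.3, 47.4 and 35.5 in EpiSCs (log2 fold change 2.67 ± 0.18 (SE), adjusted p = 7.46e-10), and the tight junction gene *Cldn6* (log2 fold change 2.18, adjusted p = 9.62e-09) and the bHLH gene *Tcf15* (log2 fold change 2.11, adjusted p = 0.000486) were likewise higher in AFSCs. *Sox3*, a SOXB1 factor, showed the reverse of *Sox2*, with 85.4, 105 and 93.3 in AFSCs and 977, 1104 and 1065 in EpiSCs (log2 fold change -3.46 ± 0.17 (SE), adjusted p = 1.75e-11). *Otx2*, a homeobox factor of the primed and anterior epiblast, had 74.5, 91 and 68.3 in AFSCs and 388, 336 and 371 in EpiSCs (log2 fold change -2.21 ± 0.13 (SE), adjusted p = 2.13e-10). Per kb, *Sox2* thus lay above *Sox3* in every AFSC sample and below it in every EpiSC sample. *Zic2* (log2 fold change -0.96, adjusted p = 6.50e-06) and *Igfbp2* (log2 fold change -0.98, adjusted p = 0.000205) were higher in EpiSCs by less than 1 log2 unit. *Fgf5* was lower in AFSCs as well (log2 fold change -0.54, adjusted p = 0.0149), but the adjusted p was 0.053 without AFSC replicate 1 and 0.0688 without EpiSC replicate 2. Without AFSC replicate 3 or without EpiSC replicate 1, 5 genes of the list were higher in AFSCs.

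**Figure D2:**
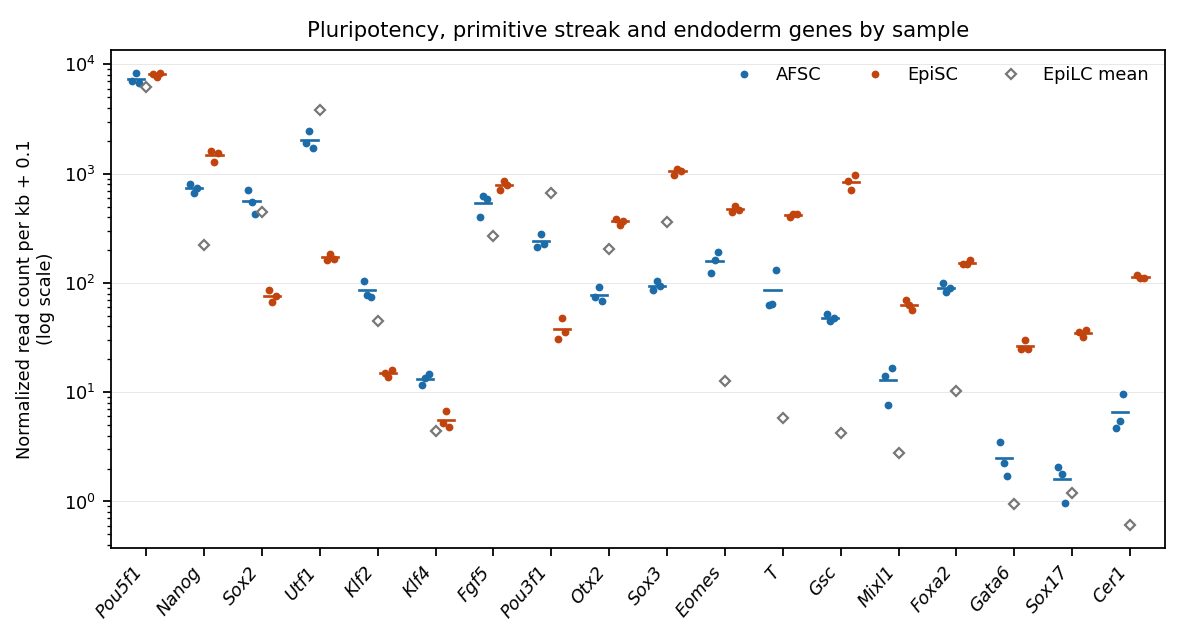
Normalized read counts per kb (plus 0.1, log axis) of pluripotency, primitive streak and endoderm genes in the 3 AFSC samples (blue) and the 3 EpiSC samples (orange), with horizontal bars at the group means and open diamonds at the EpiLC mean. *Sox2*, *Utf1* and *Klf2* sit higher in AFSCs, whereas *Gsc*, *Sox17* and *Cer1* sit higher in EpiSCs.

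Genes of the primitive streak were expressed in both groups and were mostly higher in EpiSCs. Of 24 tested, 13 were higher in EpiSCs, 3 were higher in AFSCs and 8 did not pass the test (median log2 fold change -1.31, or -1.07 over the 23 genes above the floor with genes at 0 in a group set to their bound). *T* (brachyury; ENSMUSG00000062327, chromosome 17 from 8434423 to 8442496, plus strand), the T-box factor of the streak, had 62.8, 64 and 130.2 in AFSCs and 400.2, 426 and 424 in EpiSCs (log2 fold change -2.26 ± 0.20 (SE), adjusted p = 4.56e-08). *Gsc*, a homeobox gene of the organizer at the anterior end of the streak, had 52, 44.7 and 47.4 in AFSCs and 852, 709.6 and 974 in EpiSCs (log2 fold change -4.12 ± 0.21 (SE), adjusted p = 3.11e-11). *Eomes*, a T-box factor of mesendoderm, had 124, 161 and 191 in AFSCs and 448, 502 and 467 in EpiSCs (log2 fold change -1.56 ± 0.15 (SE), adjusted p = 1.70e-07), and *Mixl1* had 14.1, 7.57 and 16.7 in AFSCs and 69.8, 62.6 and 56.6 in EpiSCs (log2 fold change -2.27 ± 0.29 (SE), adjusted p = 3.79e-06). For each of these 4 genes the AFSC samples lay below the EpiSC samples and above the EpiLC mean (5.68, 4.11, 12.5 and 2.66 in the same order). *Fgf8* (log2 fold change -1.76, adjusted p = 2.00e-06), *Lhx1* (log2 fold change -3.10, adjusted p = 9.12e-08), *Snai1* (log2 fold change -2.34, adjusted p = 4.92e-08) and *Evx1* (log2 fold change -2.19, adjusted p = 5.77e-05) followed the same direction. *Cdx1* was at 0 in the AFSC samples and at 18, 16.1 and 13.6 in EpiSCs, at least 23.6-fold higher against a floor of 3 counts over the group. The genes higher in AFSCs were the streak ligand *Wnt8a*, with 747, 658 and 1287 in AFSCs and 313, 329 and 329 in EpiSCs (log2 fold change 1.48 ± 0.21 (SE), adjusted p = 1.08e-05), *Bmp4* (log2 fold change 2.00, adjusted p = 2.63e-05) and *Tal1*, with 0.923, 1.06 and 0.946 in AFSCs and 0, 0 and 0 in EpiSCs (adjusted p = 0.00624). *Wnt3*, which starts streak formation, had a log2 fold change of 0.02 and did not pass the test.

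Endoderm genes showed the same direction. Of 20 tested, 11 were higher in EpiSCs, 3 were higher in AFSCs and 6 did not pass the test (median log2 fold change -1.05, or -1.40 over the 18 genes above the floor with genes at 0 in a group set to their bound). *Sox17*, a SOXF factor of definitive and extra-embryonic endoderm, had 1.98, 1.7 and 0.868 in AFSCs and 35.2, 31.6 and 37 in EpiSCs (log2 fold change -4.51 ± 0.34 (SE), adjusted p = 4.78e-09), and *Gata6*, a zinc finger factor of endoderm, had 3.37, 2.17 and 1.62 in AFSCs and 24.7, 30.1 and 24.8 in EpiSCs (log2 fold change -3.48 ± 0.35 (SE), adjusted p = 2.31e-07). AFSC samples were thus nearer than EpiSC samples to the EpiLC means of 1.09 for *Sox17* and 0.853 for *Gata6*. *Cer1*, a secreted inhibitor of Nodal, BMP and Wnt ligands, had 4.65, 5.33 and 9.53 in AFSCs and 119, 111 and 110.3 in EpiSCs (log2 fold change -4.07 ± 0.34 (SE), adjusted p = 1.72e-07). *Cxcr4* (log2 fold change -3.82, adjusted p = 6.84e-08), *Dkk1* (log2 fold change -3.76, adjusted p = 7.72e-08) and *Foxa1* (log2 fold change -2.27, adjusted p = 0.000734) were also higher in EpiSCs. *Foxa2*, a forkhead factor of endoderm and axial mesoderm, differed less, with 99.4, 82.5 and 89.6 in AFSCs and 148, 149 and 163 in EpiSCs (log2 fold change -0.75 ± 0.16 (SE), adjusted p = 0.0013). *Prdm1* (log2 fold change -1.49, adjusted p = 0.000431) and *Gata4*, with 0.69, 0 and 0.531 in AFSCs and 2.69, 0.677 and 1.22 in EpiSCs (adjusted p = 0.0379), were near the limit of detection in AFSCs. The call of *Gata4* was lost without AFSC replicate 2 (adjusted p = 0.208), AFSC replicate 3 (adjusted p = 0.0597), EpiSC replicate 1 (adjusted p = 0.275) and EpiSC replicate 3 (adjusted p = 0.0537). By RT-PCR, the study described strong *Sox17* and *Prdm1* (Blimp1) expression in AFSCs, and *Gata6* and *Gata4* as displayed by AFSCs alone. In the RNA-seq samples *Sox17*, *Gata6* and *Prdm1* were lower in AFSCs than in EpiSCs. *Gata4* had the same direction in the main fit, but its samples overlapped between the groups and its call depended on single samples. The reason for the difference from RT-PCR was not tested. Of the genes higher in AFSCs, *Apoe* stood out with 946, 877 and 1089 in AFSCs and 135, 111 and 146 in EpiSCs (log2 fold change 2.91 ± 0.18 (SE), adjusted p = 2.47e-10), and *Dab2* and *Lrp2*, endocytic adaptor and receptor, had log2 fold changes of 1.51 and 0.79. The visceral endoderm genes *Hnf4a*, *Ttr* and *Apoa4* had no count in any of the 6 samples.

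Neural genes included single genes with large differences. Of 16 tested, 4 were higher in AFSCs, 8 were higher in EpiSCs and 4 did not pass the test (median log2 fold change -0.99, or -1.05 over the 15 genes above the floor with genes at 0 in a group set to their bound). *Fabp7*, a fatty acid binding protein of radial glia, had 3.23, 5.56 and 2.49 in AFSCs and 315, 224 and 328 in EpiSCs (log2 fold change -6.22 ± 0.36 (SE), adjusted p = 3.43e-09). *En1*, a homeobox gene of the midbrain and hindbrain border, had 0, 0 and 0.79 in AFSCs and 29, 29.9 and 31.3 in EpiSCs. Its AFSC libraries held 2 counts in all, which gave a ratio of 102 (95% counting interval 27.9 to 845). *Tubb3* (log2 fold change -1.26, adjusted p = 4.71e-05) and *Cdh2* (log2 fold change -1.05, adjusted p = 0.00209) differed in the same direction by smaller amounts, whereas *Gbx2*, with 18.6, 25.5 and 30.9 in AFSCs and 6.63, 11.7 and 9.65 in EpiSCs (log2 fold change 1.41, adjusted p = 0.000467), was higher in AFSCs. Without AFSC replicate 3, 2 neural genes were higher in AFSCs. The count higher in EpiSCs was 5 without chromosomes 10, 11 and 12 (whose genes shifted together, given further on) and with 10 counts required in every sample of a group, and with only the 6 samples fitted the counts were 2 and 4. Markers of trophoblast (4 of 14 higher in AFSCs, 3 higher in EpiSCs; median 0.64, or 1.15 over the 13 genes above the floor with genes at 0 in a group set to their bound) and of blood and endothelium (2 and 2 of 11; median -0.43) differed in shares closer to the background. Without AFSC replicate 3, 1 and 1 of the blood and endothelium markers were called, and the count higher in EpiSCs was 1 as well without AFSC replicate 2, EpiSC replicate 1 or EpiSC replicate 3. With only the 6 samples fitted, 1 trophoblast marker and 0 of the blood and endothelium markers were higher in AFSCs. In the first list *Gcm1* was at 3.31, 6.26 and 9.17 in AFSCs and at 0 in EpiSCs, and in the second *Lmo2* had 9.33, 10.7 and 13.4 in AFSCs and 70.3, 46.4 and 55.5 in EpiSCs (log2 fold change -2.32, adjusted p = 2.32e-06). Of the 39 *Hox* genes, 13 had no count in any of the 6 samples, and 1 and 1 of 18 tested were called in each direction (2 higher in AFSCs without AFSC replicate 2). Only 5 of the 18 had more than 3 counts over the AFSC or over the EpiSC libraries. With only the 6 samples fitted, and with 10 counts required in every sample of a group, 0 and 0 were called.

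Signalling genes were taken by role, starting with Nodal and Activin. Of 30 tested, 11 were higher in AFSCs, 12 were higher in EpiSCs and 7 did not pass the test (median -0.11). Among ligands, *Nodal* had 579, 512 and 868 in AFSCs and 418, 364 and 428 in EpiSCs (log2 fold change 0.71 ± 0.20 (SE), adjusted p = 0.00693), with an adjusted p of 0.0706 without AFSC replicate 3. In the same role *Tgfb1* (log2 fold change 1.93, adjusted p = 8.49e-07) and *Tgfb2* (log2 fold change 2.74, adjusted p = 3.66e-05) were higher in AFSCs, and *Inhbb*, which encodes a subunit of activin B, was higher in EpiSCs (log2 fold change -2.65, adjusted p = 0.000787). The type I receptor *Tgfbr1* (log2 fold change -1.45, adjusted p = 0.000142) and the type II receptor *Acvr2b* (log2 fold change -1.49, adjusted p = 0.000435) were higher in EpiSCs, and *Tgfbr2* was higher in AFSCs (log2 fold change 1.96, adjusted p = 3.84e-06). Of the signal transducers, *Smad2* and *Smad4* had log2 fold changes of 0.19 and -0.08 and did not pass the test, *Smad3* was slightly higher in EpiSCs (log2 fold change -0.52, adjusted p = 0.0069) and *Foxh1*, the forkhead partner of SMAD2, was higher in AFSCs, with 267, 617 and 652 in AFSCs and 74.4, 145 and 107 in EpiSCs (log2 fold change 2.24 ± 0.30 (SE), adjusted p = 8.81e-06). The secreted inhibitors split. *Lefty1*, a feedback inhibitor of Nodal, had 3931, 3333 and 4730.1 in AFSCs and 1079, 1078 and 1164 in EpiSCs (log2 fold change 1.87 ± 0.17 (SE), adjusted p = 7.34e-08), whereas *Fst* (follistatin), which binds activin, had 149, 121 and 246 in AFSCs and 869, 746 and 824 in EpiSCs (log2 fold change -2.22 ± 0.21 (SE), adjusted p = 1.18e-07).

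FGF and ERK genes were higher in AFSCs more often than the reverse. Of 33 tested, 17 were higher in AFSCs, 8 were higher in EpiSCs and 8 did not pass the test (median 0.46). The ligands differed from each other. *Fgf4* was higher in AFSCs (log2 fold change 2.40, adjusted p = 2.47e-10), *Fgf8* had 776, 442 and 719.8 in AFSCs and 2466, 1884 and 2284 in EpiSCs (log2 fold change -1.76, adjusted p = 2.00e-06), and *Fgf15*, which encodes an endocrine FGF, had 33, 23.1 and 27.4 in AFSCs and 581, 495 and 554 in EpiSCs (log2 fold change -4.27 ± 0.20 (SE), adjusted p = 8.03e-12). *Fgfbp1*, which encodes a carrier that releases FGFs from the matrix, had 472, 422 and 461 in AFSCs and 23.2, 16 and 20.7 in EpiSCs (log2 fold change 4.53 ± 0.23 (SE), adjusted p = 3.17e-11). The receptors *Fgfr1* and *Fgfr2* did not pass the test, with log2 fold changes of -0.12 and -0.05. *Kit*, a receptor tyrosine kinase, had 8.46, 5.2 and 13 in AFSCs and 118, 114 and 123 in EpiSCs (log2 fold change -3.70 ± 0.29 (SE), adjusted p = 9.60e-09). The phosphatase genes *Dusp4* (log2 fold change 2.40, adjusted p = 6.98e-06), *Dusp6* (log2 fold change 0.68, adjusted p = 0.000309) and *Dusp14* (log2 fold change 3.47, adjusted p = 4.82e-10), the feedback inhibitor *Spry4* (log2 fold change 0.69, adjusted p = 0.00546) and the ETS factor *Etv4* (log2 fold change 1.18, adjusted p = 1.78e-06) were higher in AFSCs, and *Spry2* was higher in EpiSCs (log2 fold change -0.58, adjusted p = 0.000227). With only the 6 samples fitted, 5 genes of the list were higher in EpiSCs. Chromosomes 10, 11 and 12 held 10 of these genes, and among the 23 others 10 were higher in AFSCs and 6 in EpiSCs.

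Wnt, BMP and Notch genes were more often higher in EpiSCs. Of 38 Wnt genes tested, 5 were higher in AFSCs, 15 were higher in EpiSCs and 18 did not pass the test (median -0.08), and for BMP the counts of 27 were 4, 10 and 13 (median -0.62, or -0.61 over the 26 genes above the floor with genes at 0 in a group set to their bound). *Wnt4* had 59.7, 49.1 and 40 in AFSCs and 0.626, 1.05 and 0.683 in EpiSCs (log2 fold change 5.90 ± 0.30 (SE), adjusted p = 2.77e-11), and *Wnt11*, a ligand of convergent extension, had 14.6, 14.3 and 31.6 in AFSCs and 237, 231 and 246 in EpiSCs (log2 fold change -3.53 ± 0.23 (SE), adjusted p = 7.46e-10). Of the targets and inhibitors of canonical Wnt signalling, *Axin2* (log2 fold change -0.65, adjusted p = 0.00472), *Sp5* (log2 fold change -1.07, adjusted p = 0.00015), *Notum* (log2 fold change -1.07, adjusted p = 0.00191) and *Frzb* (log2 fold change -3.22, adjusted p = 5.08e-07) were higher in EpiSCs, as was *Ctnnb1* (β-catenin) itself (log2 fold change -0.82, adjusted p = 3.49e-05), while *Lef1* (log2 fold change 0.35) did not pass the test. The BMP targets *Id1* (log2 fold change -1.80, adjusted p = 4.96e-05), *Id2* (log2 fold change -0.80, adjusted p = 0.000766) and *Smad6* (log2 fold change -1.26, adjusted p = 0.000333) and the transducer *Smad1* (log2 fold change -1.71, adjusted p = 3.55e-09) were higher in EpiSCs, against the ligand *Bmp4* in AFSCs (log2 fold change 2.00, adjusted p = 2.63e-05). Without EpiSC replicate 1, or with only the 6 samples fitted, 2 BMP genes were higher in AFSCs. Among 15 Notch genes, 9 were higher in EpiSCs and 1 in AFSCs (median -1.30). The Notch targets *Hes1*, with 251, 168 and 148 in AFSCs and 483, 414 and 508 in EpiSCs (log2 fold change -1.30 ± 0.19 (SE), adjusted p = 2.34e-05), *Hey1* (log2 fold change -1.39, adjusted p = 0.000835) and *Nrarp* (log2 fold change -1.93, adjusted p = 3.33e-07) were higher in EpiSCs together with the receptor *Notch2* (log2 fold change -1.50, adjusted p = 0.000417), the modifiers *Lfng* (log2 fold change -1.44, adjusted p = 0.000124) and *Mfng* (log2 fold change -2.69, adjusted p = 4.63e-08) and the ligand *Dll1* (log2 fold change -1.01, adjusted p = 0.000295). The ligand *Jag2*, on chromosome 12, was the gene higher in AFSCs (log2 fold change 1.54, adjusted p = 2.31e-06).

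Genes of adhesion went mostly one way. Of 27 genes of adhesion and of the epithelial to mesenchymal transition, 17 were higher in AFSCs, 7 were higher in EpiSCs and 3 did not pass the test (median 1.16). *Cdh1* (E-cadherin; ENSMUSG00000000303, chromosome 8 from 106603351 to 106670246, plus strand), the cadherin of epithelia, had 873, 483 and 762 in AFSCs and 170.1, 177 and 174 in EpiSCs (log2 fold change 2.04 ± 0.24 (SE), adjusted p = 1.29e-06). The claudin *Cldn4* had 179, 139 and 231 in AFSCs and 2.17, 2.43 and 2.63 in EpiSCs (log2 fold change 6.21 ± 0.27 (SE), adjusted p = 4.26e-12), and the keratin *Krt19* had 410.2, 360.1 and 256 in AFSCs and 2.12, 0.95 and 3.09 in EpiSCs (log2 fold change 7.37 ± 0.34 (SE), adjusted p = 7.34e-12). *Krt8* (log2 fold change 2.74, adjusted p = 3.47e-11), *Krt18* (log2 fold change 2.29, adjusted p = 1.51e-09), *Epcam* (log2 fold change 1.16, adjusted p = 3.77e-05), *Jup* (log2 fold change 2.79, adjusted p = 6.39e-09) and *Cldn7* (log2 fold change 3.75, adjusted p = 1.51e-10) differed in the same direction. On the mesenchymal side *Cdh2* (log2 fold change -1.05, adjusted p = 0.00209), *Cdh11*, with 1.36, 0.78 and 3.26 in AFSCs and 57.2, 50.2 and 49.5 in EpiSCs (log2 fold change -4.79 ± 0.32 (SE), adjusted p = 3.21e-09), *Snai1*, *Zeb1* (log2 fold change -1.18, adjusted p = 0.000407) and *Zeb2* (log2 fold change -1.83, adjusted p = 7.60e-05) were higher in EpiSCs, but *Twist1*, with 82.5, 60.2 and 53.2 in AFSCs and 5.68, 6.54 and 6.5 in EpiSCs (log2 fold change 3.37 ± 0.33 (SE), adjusted p = 1.31e-07), and *Vim* (log2 fold change 0.70, adjusted p = 0.00196) were higher in AFSCs.

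Of 22 genes of the basement membrane and its integrins, 14 were higher in AFSCs and 0 in EpiSCs (median 0.83). *Sparc*, a collagen-binding matrix protein, had 861, 711 and 966 in AFSCs and 233, 242 and 249 in EpiSCs (log2 fold change 1.83 ± 0.14 (SE), adjusted p = 4.60e-09), *Nid2* (nidogen-2) had 448, 271 and 511 in AFSCs and 87.1, 91.8 and 79.9 in EpiSCs (log2 fold change 2.26 ± 0.24 (SE), adjusted p = 5.05e-07), and *Fn1* (fibronectin) had 87.7, 38.7 and 74.6 in AFSCs and 20, 22.4 and 20.9 in EpiSCs (log2 fold change 1.68 ± 0.27 (SE), adjusted p = 7.14e-05). The count of 0 stands beside 1 gene at an unadjusted p below 0.05 in edgeR and 0 called by DESeq2. Without AFSC replicate 3, 9 genes were higher in AFSCs and 1 in EpiSCs, without EpiSC replicate 2, 1 was higher in EpiSCs, and without AFSC replicate 1 the counts were 12 and 1. Markers of fibroblasts moved with these genes. Of 19 tested, 10 were higher in AFSCs, 3 were higher in EpiSCs and 6 did not pass the test (median 1.81, or 1.38 over the 18 genes above the floor with genes at 0 in a group set to their bound), and their summed level was 1226 to 1924 in AFSCs and 281 to 314 in EpiSCs. Without AFSC replicate 2, EpiSC replicate 2, EpiSC replicate 3 or chromosomes 10, 11 and 12, 1 fibroblast marker was higher in EpiSCs, and with only the 6 samples fitted 0 were. Most of the sum in AFSCs was *Tagln*, an actin-binding protein of smooth muscle and spread cells, with 949, 1649.5 and 1564 in AFSCs and 62.9, 68.9 and 64.4 in EpiSCs (log2 fold change 4.42 ± 0.23 (SE), adjusted p = 3.60e-11). *Col1a1* had 23.6, 13.6 and 25.9 in AFSCs and 1.2, 2.55 and 1.02 in EpiSCs (log2 fold change 3.68 ± 0.49 (SE), adjusted p = 7.97e-06), *Mmp2* and *Thy1* had log2 fold changes of -0.08 and -0.32 and did not pass the test, and no marker of the list was at 0 in all 6 samples. The part of such cells in the result was not tested, and in bulk samples more cells of a type and more RNA per cell cannot be told apart.

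Genes of amino acid synthesis, amino acid transport and the integrated stress response were higher in AFSCs almost throughout. In this response, phosphorylation of the translation factor eIF2α raises translation of ATF4, which activates genes of amino acid supply through C/EBP-ATF response elements. Of 25 genes tested, 21 were higher in AFSCs, 1 was higher in EpiSCs and 3 did not pass the test (median 1.44), and without AFSC replicate 1 the first counts were 21 and 1. *Trib3* (ENSMUSG00000032715, chromosome 2 from 152337422 to 152344032, minus strand), a pseudokinase induced by ATF4 and CHOP, had 423, 632 and 493 in AFSCs and 19.1, 15.3 and 12.1 in EpiSCs (log2 fold change 5.08 ± 0.22 (SE), adjusted p = 4.26e-12). *Chac1* (ENSMUSG00000027313, chromosome 2 from 119351229 to 119354381, plus strand), which degrades glutathione, had 182, 279 and 296 in AFSCs and 14.4, 24.2 and 18.7 in EpiSCs (log2 fold change 3.71 ± 0.27 (SE), adjusted p = 2.89e-09). *Asns* (ENSMUSG00000029752, chromosome 6 from 7675169 to 7693254, minus strand), the asparagine synthetase, had 714, 1183 and 954 in AFSCs and 263, 288 and 259 in EpiSCs (log2 fold change 1.83 ± 0.17 (SE), adjusted p = 9.12e-08). *Cth*, which makes cysteine from cystathionine, had 686, 800.5 and 659 in AFSCs and 31.5, 34.1 and 35.9 in EpiSCs (log2 fold change 4.41 ± 0.15 (SE), adjusted p = 1.04e-13), and the transcription factor *Atf5* had 2439.9, 2401 and 1785 in AFSCs and 265, 312 and 304 in EpiSCs (log2 fold change 2.92 ± 0.19 (SE), adjusted p = 4.85e-10). For each of these 5 genes every AFSC sample lay above every EpiSC sample.

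**Figure D3:**
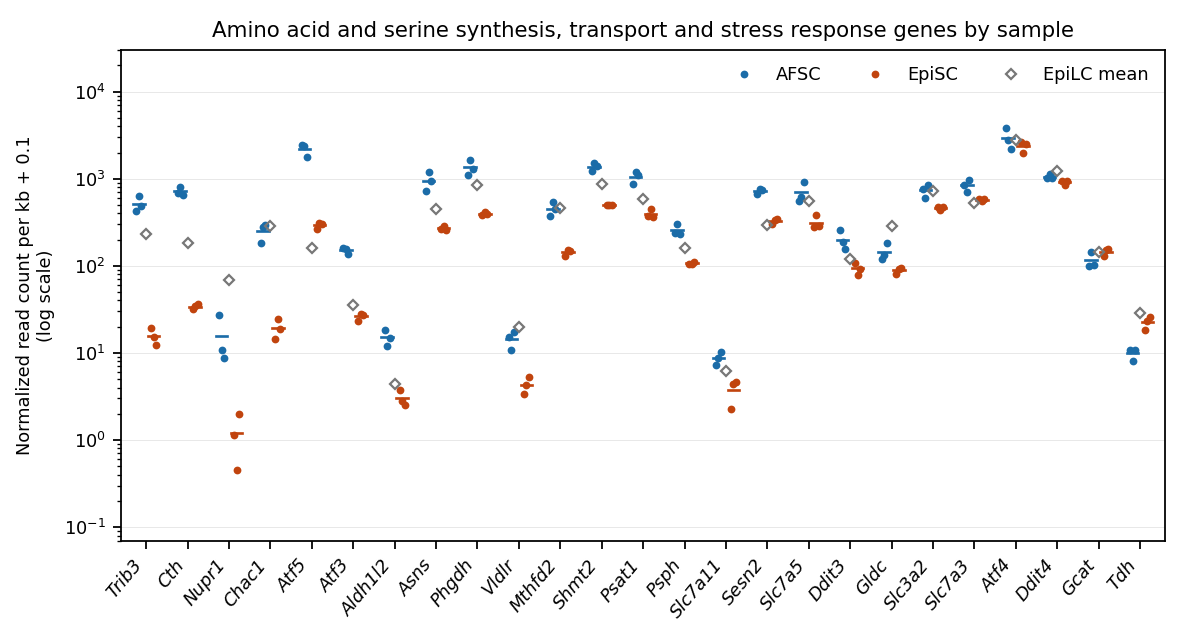
Normalized read counts per kb (plus 0.1, log axis) of the 25 genes of amino acid supply and stress response in AFSC (blue) and EpiSC (orange) samples, with bars at group means and open diamonds at the EpiLC mean, ordered by log2 fold change. From *Trib3* to *Slc7a3* the AFSC means sit above the EpiSC means, and *Atf4* itself overlaps between the groups.

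The serine pathway enzymes *Phgdh* (log2 fold change 1.79, adjusted p = 3.20e-08), *Psat1* (log2 fold change 1.44, adjusted p = 4.49e-07) and *Psph* (log2 fold change 1.28, adjusted p = 1.33e-06) and the folate enzymes *Shmt2* (log2 fold change 1.48, adjusted p = 7.82e-08), *Mthfd2* (log2 fold change 1.67, adjusted p = 1.49e-07) and *Aldh1l2* (log2 fold change 2.38, adjusted p = 3.90e-08) were higher in AFSCs. Of the transporters, *Slc7a5* (log2 fold change 1.16, adjusted p = 0.000316), *Slc3a2* (log2 fold change 0.70, adjusted p = 0.00434) and *Slc7a11* (log2 fold change 1.22, adjusted p = 0.000428) showed the same direction. *Ddit3* (CHOP) (log2 fold change 1.12, adjusted p = 0.000132), *Sesn2* (log2 fold change 1.17, adjusted p = 9.02e-07) and *Atf3* (log2 fold change 2.53, adjusted p = 6.36e-10) were higher in AFSCs too. *Atf4*, which is controlled largely at translation, had 3829, 2803 and 2191 in AFSCs and 2641, 1967 and 2502 in EpiSCs and did not pass the test (log2 fold change 0.33 ± 0.20 (SE), adjusted p = 0.213). *Tdh*, the threonine dehydrogenase of naive cells, was the gene higher in EpiSCs, with 10.8, 7.97 and 10.7 in AFSCs and 18.1, 23.3 and 25.6 in EpiSCs (log2 fold change -1.18 ± 0.21 (SE), adjusted p = 0.0002).

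The promoter windows of these genes were read for the letters TGATGNAA on either strand, the core of the C/EBP-ATF response element. The list was made up of genes of amino acid supply and the integrated stress response. A higher share of matches than in all windows may therefore follow from that choice. Any part of the element in the difference between AFSCs and EpiSCs was not tested. RefSeq windows of 300 bases, from 250 before to 50 after the start, were found for 20 of the 25 genes. The letters occurred in windows of 7 of them (*Asns*, *Atf3*, *Chac1*, *Nupr1*, *Slc7a11*, *Trib3* and *Vldlr*), in 7 of 23 windows, against 3.97% of all 32851 windows of the table. Of these, 3 windows, those of the response genes described above, are printed 5′ to 3′ on the strand of the gene (build GRCm38.p6), with the match in capitals. In *Asns* the match is on the strand of the gene, and in the others on the opposite strand.
Trib3, chr2:152344011-152344310, minus strand: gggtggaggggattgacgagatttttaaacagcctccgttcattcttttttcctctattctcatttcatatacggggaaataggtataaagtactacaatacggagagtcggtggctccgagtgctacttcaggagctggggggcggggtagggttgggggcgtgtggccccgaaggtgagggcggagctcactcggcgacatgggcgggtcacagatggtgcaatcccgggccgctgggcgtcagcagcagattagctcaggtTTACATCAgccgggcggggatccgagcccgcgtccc
Chac1, chr2:119350992-119351291, plus strand: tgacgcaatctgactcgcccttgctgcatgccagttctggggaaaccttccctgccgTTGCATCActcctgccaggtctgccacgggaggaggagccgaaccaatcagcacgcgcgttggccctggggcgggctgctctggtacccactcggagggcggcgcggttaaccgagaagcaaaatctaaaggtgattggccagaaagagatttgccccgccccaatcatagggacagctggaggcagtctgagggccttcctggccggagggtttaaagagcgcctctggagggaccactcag
Asns, chr6:7693160-7693459, minus strand: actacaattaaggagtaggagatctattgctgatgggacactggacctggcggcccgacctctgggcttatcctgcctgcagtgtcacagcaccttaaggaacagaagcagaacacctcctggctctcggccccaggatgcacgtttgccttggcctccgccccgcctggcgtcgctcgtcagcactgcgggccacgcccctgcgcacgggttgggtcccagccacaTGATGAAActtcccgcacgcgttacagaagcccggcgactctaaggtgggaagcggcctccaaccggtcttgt
A match of 8 letters is a description of the sequence and does not show that a factor was bound. *Phgdh*, *Psat1*, *Shmt2*, *Mthfd2* and *Atf5* had no match in the windows read.

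Immediate early genes and genes of antigen presentation were also mostly higher in AFSCs. Of 19 immediate early genes, 14 were higher in AFSCs, 3 were higher in EpiSCs and 2 did not pass the test (median 0.94). *Fosb* had 55.7, 41.3 and 72.5 in AFSCs and 8.2, 10.6 and 10.1 in EpiSCs (log2 fold change 2.56 ± 0.27 (SE), adjusted p = 4.72e-07), *Dusp1* had 216, 264 and 278 in AFSCs and 64.7, 79.7 and 72.9 in EpiSCs (log2 fold change 1.81 ± 0.21 (SE), adjusted p = 1.20e-06) and *Ccn1*, which encodes a matricellular protein, had 1694, 1299.8 and 1739 in AFSCs and 596, 491 and 596 in EpiSCs (log2 fold change 1.51 ± 0.22 (SE), adjusted p = 1.83e-05). *Ccn2*, encoding a related matricellular protein, was higher in EpiSCs, with 16.5, 19.8 and 21.4 in AFSCs and 87.6, 101 and 95.1 in EpiSCs (log2 fold change -2.28 ± 0.23 (SE), adjusted p = 1.68e-07). Of 22 genes of MHC class I presentation and the interferon response, 15 were higher in AFSCs, 3 were higher in EpiSCs and 4 did not pass the test (median 1.02). *Ifitm3*, an interferon-induced membrane protein, had 1335, 867 and 698 in AFSCs and 42.6, 40.3 and 61.9 in EpiSCs (log2 fold change 4.32 ± 0.28 (SE), adjusted p = 5.02e-10), and *Isg15*, a ubiquitin-like modifier, had 192, 79.6 and 45.2 in AFSCs and 5.21, 3.5 and 7.58 in EpiSCs (log2 fold change 4.24 ± 0.58 (SE), adjusted p = 1.73e-05). The peptide transporter genes *Tap1* (log2 fold change 1.40, adjusted p = 3.96e-05) and *Tap2* (log2 fold change 1.89, adjusted p = 2.84e-05) and the immunoproteasome genes *Psmb8* (log2 fold change 1.92, adjusted p = 3.29e-07) and *Psmb9* (log2 fold change 2.42, adjusted p = 6.90e-07) were higher in AFSCs, and *B2m*, the light chain of class I molecules, had a log2 fold change of 0.48 and did not pass the test. The class I heavy chain genes differed in direction, as *H2-D1* (log2 fold change 1.16, adjusted p = 4.63e-05) and *H2-T22* (log2 fold change 1.71, adjusted p = 4.06e-08) were higher in AFSCs and *H2-K1* (log2 fold change -0.86, adjusted p = 0.000553) and *H2-Q7* (log2 fold change -2.48, adjusted p = 8.16e-05) in EpiSCs. These genes are related in sequence, and fragments that map to several places were counted at each. Their separate values are therefore uncertain to an extent that was not measured.

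Genes of the cell cycle and of the p53 pathway went both ways. Of 25 tested, 9 were higher in AFSCs, 7 were higher in EpiSCs and 9 did not pass the test (median 0.13). *Cdkn2a*, which encodes the cell cycle inhibitors INK4A and ARF, had 137, 115 and 91.9 in AFSCs and 1.12, 3.01 and 3.26 in EpiSCs (log2 fold change 5.41 ± 0.35 (SE), adjusted p = 6.44e-10), and its neighbour *Cdkn2b* was higher in AFSCs as well (log2 fold change 3.16, adjusted p = 0.000787). *Pmaip1* (NOXA), a proapoptotic BH3-only gene, had 1.02, 0.875 and 1.17 in AFSCs and 229, 188 and 219.7 in EpiSCs (log2 fold change -7.61 ± 0.22 (SE), adjusted p = 2.02e-14), and the AFSC samples were thus low where EpiLCs had 604. The p53 targets in the list thus differed in direction. Against *Pmaip1*, *Mdm2* (log2 fold change 1.03, adjusted p = 1.19e-06), *Bbc3* (PUMA) (log2 fold change 0.96, adjusted p = 7.90e-05) and *Phlda3* (log2 fold change 1.16, adjusted p = 9.40e-05) were higher in AFSCs. *Cdkn1a* had 442, 708 and 695 in AFSCs and 598, 642 and 629 in EpiSCs and did not pass the test (adjusted p = 1). The MYC family genes differed in direction, with *Myc* higher in AFSCs (log2 fold change 0.94, adjusted p = 0.000513) and *Mycn*, with 193, 332 and 251 in AFSCs and 501, 548 and 518 in EpiSCs (adjusted p = 0.000121), and *Mycl* (log2 fold change -2.42, adjusted p = 6.74e-08) higher in EpiSCs.

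Imprinted genes, which are expressed from the allele of 1 parent, differed in shares near the background, but single genes differed by large amounts. Of 41 tested, 8 were higher in AFSCs, 10 were higher in EpiSCs and 23 did not pass the test (median -0.06, or -0.10 over the 39 genes above the floor with genes at 0 in a group set to their bound). *Mest* (Peg1; ENSMUSG00000051855, chromosome 6 from 30723547 to 30748465, plus strand), expressed from the paternal allele, had 5.12, 2.93 and 3.15 in AFSCs and 295, 303 and 294 in EpiSCs (log2 fold change -6.32 ± 0.18 (SE), adjusted p = 2.02e-14), with EpiLCs at 590.5. *Cdkn1c* (p57; ENSMUSG00000037664, chromosome 7 from 143458339 to 143461050, minus strand), a maternally expressed cell cycle inhibitor, had 5.94, 3.97 and 3.56 in AFSCs and 319.9, 294 and 308 in EpiSCs (log2 fold change -6.09 ± 0.30 (SE), adjusted p = 1.36e-11). *Plagl1* (Zac1), a paternally expressed zinc finger gene, had 0.172, 0.148 and 0.397 in AFSCs and 10.9, 10.6 and 10.5 in EpiSCs (log2 fold change -5.33 ± 0.31 (SE), adjusted p = 1.63e-10), *Peg13* had 0.57, 0 and 0.658 in AFSCs and 11.4, 19 and 16.4 in EpiSCs (log2 fold change -5.17, adjusted p = 3.53e-07) and *Nnat* had 5.89, 1.9 and 3.96 in AFSCs and 92.6, 120.0 and 104 in EpiSCs (log2 fold change -4.75 ± 0.33 (SE), adjusted p = 1.35e-09). For these 5 genes every AFSC sample lay below every EpiSC sample and below the EpiLC mean. The reverse was seen for *Slc22a18*, an organic cation transporter gene near *Cdkn1c*, with 30.1, 20.4 and 22.6 in AFSCs and 0.772, 0.519 and 1.12 in EpiSCs (log2 fold change 4.82 ± 0.51 (SE), adjusted p = 4.39e-07). *Phlda2*, of the same chromosome 7 cluster, was higher in AFSCs by less (log2 fold change 0.90, adjusted p = 0.000442). *Peg10* was higher in AFSCs (log2 fold change 1.30, adjusted p = 1.31e-05) and *Rtl1* in EpiSCs (log2 fold change -1.77, adjusted p = 0.00601). *Igf2r* was higher in AFSCs, with 72.2, 47.2 and 98.6 in AFSCs and 33.6, 41.6 and 35 in EpiSCs (adjusted p = 0.00746, or 0.0593 without AFSC replicate 3). *Meg3*, *Rian*, *Snrpn*, *Peg3* and *Grb10* had log2 fold changes of 0.39, 0.05, -0.12, -0.06 and 0.06 and did not pass the test. Without AFSC replicate 1, 5 imprinted genes were higher in AFSCs and 13 in EpiSCs. Without AFSC replicate 3 or EpiSC replicate 2, 5 and 4 were higher in AFSCs, and with only the 6 samples fitted 5 were.

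**Figure D4:**
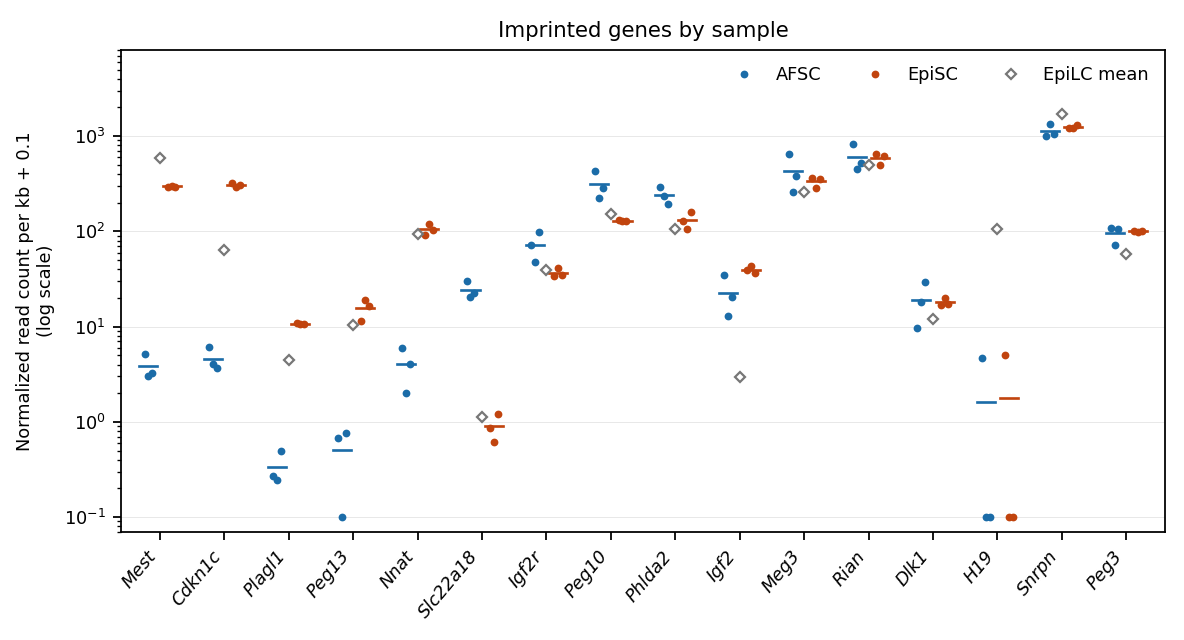
Normalized read counts per kb (plus 0.1, log axis) of imprinted genes in AFSC (blue) and EpiSC (orange) samples, with bars at group means and open diamonds at the EpiLC mean. *Mest*, *Cdkn1c*, *Plagl1*, *Peg13* and *Nnat* are lower in all AFSC samples, and *Slc22a18* is higher in all of them.

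The X chromosome did not shift as a whole. Of 641 X-linked genes tested, 116 were higher in AFSCs and 106 were higher in EpiSCs (222 in all, 34.6% against 39.4% of all genes), and the X-linked median log2 fold change lay -0.02 from the autosomal one. *Xist*, the RNA that coats the inactive X chromosome, had 271, 142 and 291 in AFSCs and 144, 138 and 132 in EpiSCs and was present in all 6 samples, the groups differing slightly (log2 fold change 0.78 ± 0.30 (SE), adjusted p = 0.0467). This call was lost in DESeq2 (adjusted p = 0.0547) and without any 1 of the libraries other than AFSC replicate 2 (adjusted p = 0.0926 to 0.173). Reads of *Xist* and of its antisense gene *Tsix* cannot be told apart, since the counting did not use the strand. The X-linked genes *Kdm5c*, a histone demethylase (log2 fold change -0.73, adjusted p = 0.00255), and *Ddx3x*, an RNA helicase (log2 fold change -0.70, adjusted p = 0.000258), were higher in EpiSCs. Among the Y-linked genes, *Ddx3y* had 0, 0 and 0 in AFSCs and 0, 0 and 0.184 in EpiSCs. Of 17 genes of DNA methylation, 2 were higher in AFSCs, 3 were higher in EpiSCs and 12 did not pass the test (median -0.18). The first counts were 1 and 1 without chromosomes 10, 11 and 12, and 5 were higher in EpiSCs with a replicate block. The maintenance methyltransferase *Dnmt1* (log2 fold change -0.62, adjusted p = 0.000604) and the de novo enzyme *Dnmt3a* (log2 fold change -0.87, adjusted p = 0.000173) were higher in EpiSCs, and *Dnmt3b*, with 876, 1133 and 1059 in AFSCs and 1131, 1277 and 1155 in EpiSCs, did not pass the test (log2 fold change -0.20 ± 0.14 (SE), adjusted p = 0.275). Of 31 germline genes, 6 were higher in AFSCs and 1 in EpiSCs (median 0.17, or 1.36 over the 10 genes above the floor with genes at 0 in a group set to their bound). The count of 6 was 3 with only the 6 samples fitted and with 10 counts required in every sample of a group. *Tex19.1* had 8.63, 23.5 and 18.3 in AFSCs and 0.701, 5.18 and 3.06 in EpiSCs (log2 fold change 2.39, adjusted p = 0.00655). Of 16 genes of the 2-cell stage, edgeR and DESeq2 called 0, with 0 at an unadjusted p below 0.05 in edgeR, and 8 of 17 had no count in the 6 samples. Only 2 of the 16 had more than 3 counts over the AFSC or over the EpiSC libraries. The others had too few counts to be called, so the count of 0 says nothing about them.

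Metabolic genes differed by smaller amounts. Of 27 genes of glycolysis, 9 were higher in AFSCs, 7 were higher in EpiSCs and 11 did not pass the test (median 0.05). Without chromosomes 10, 11 and 12, 3 were higher in EpiSCs. The lactate dehydrogenase subunits moved in opposite directions, with *Ldha* at 1149.7, 3009 and 2543 in AFSCs and 4045, 5132 and 4195 in EpiSCs (log2 fold change -0.98 ± 0.29 (SE), adjusted p = 0.0102) and *Ldhb* at 693, 986 and 805 in AFSCs and 324, 336 and 341 in EpiSCs (log2 fold change 1.33 ± 0.16 (SE), adjusted p = 2.81e-06). *Slc16a3*, a lactate exporter, was higher in EpiSCs (log2 fold change -2.99, adjusted p = 2.47e-10). Of 29 genes of sterol and fatty acid synthesis, 1 was higher in AFSCs, 5 were higher in EpiSCs and 23 did not pass the test (median -0.05). The count higher in AFSCs was 2 without AFSC replicate 1 and 0 without AFSC replicate 2 or EpiSC replicate 1. Those higher in EpiSCs included *Insig1*, a feedback inhibitor of sterol synthesis, with 146, 162 and 175 in AFSCs and 557, 610.3 and 568 in EpiSCs (log2 fold change -1.83 ± 0.11 (SE), adjusted p = 3.40e-10), and *Idi1* (log2 fold change -1.52, adjusted p = 8.97e-08). The 13 mitochondrially encoded genes had positive log2 fold changes (median 0.60) with no call in edgeR's test, 0 at an unadjusted p below 0.05 and 0 called by DESeq2. This rested on AFSC replicate 1, as without it 12 of the 13 were called higher in EpiSCs.

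Some genes had counts in 1 group and none in the other. Among genes past the thresholds, 30 had no count in any AFSC library and 16 had none in any EpiSC library, of which 21 and 11 were protein-coding. Over all 35773 genes, 18441 to 18996 had a count in an AFSC library and 18431 to 18967 in an EpiSC library. As depth also differed between the libraries, 30 against 16 is not read as a difference between the cells. *Hexa* (ENSMUSG00000025232, chromosome 9 from 59539667 to 59565105, plus strand), the α subunit of the lysosomal enzyme β-hexosaminidase, was at 0 in the AFSC samples and at 38.7, 33.1 and 29.7 in EpiSCs (at least 53.3-fold higher against a floor of 3 counts over the group; adjusted p = 1.97e-10), while EpiLCs had 171 ± 16.7 and the ESCs of the series 626 ± 18.6 (SD, n = 3). *Nmral1*, which encodes an NADPH-sensing protein, was at 0 in AFSCs and at 121, 93.1 and 114 in EpiSCs (at least 359.6-fold), near the EpiLC mean of 117. *Klhl22*, an adaptor of a CUL3 ubiquitin ligase, was at 0 in AFSCs and at 8.68, 8.59 and 9.14 in EpiSCs (at least 43.4-fold), whereas EpiLCs had 88.8; it was named after its values were seen. ASCs, which the labels describe as derived from AFSCs, had 241 ± 23.3 for *Hexa*, 36.2 ± 9.75 for *Nmral1* and 202 ± 22.3 for *Klhl22*. Of the 21 protein-coding genes without a count in AFSCs, 15 were above the level threshold in at least 1 of the other 4 groups and 8 in all 4, and of the 11 without a count in EpiSCs these counts were 10 and 5.

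Ordered by the fitted log2 fold change, the first 10 protein-coding genes towards AFSCs, among those past the thresholds without overlap, were *Zfp976*, *Zfp975*, *Dcaf12l1*, *Vgll3*, *Slitrk5*, *Repin1*, *Ap1m2*, *Xlr3b*, *Cyb5r2* and *Tcfl5*. *Zfp976* and *Zfp975*, neighbouring zinc finger genes of similar sequence, were at 61.2, 26.7 and 21.8 and at 25.1, 15.8 and 15.3 in AFSCs and at 0 in EpiSCs (at least 171 and 80.1-fold higher). Since similar genes share fragments in this counting, their values are not independent. *Vgll3*, a cofactor of TEAD factors, had 20.3, 17.8 and 16.8 in AFSCs and no count in EpiSCs (at least 59.2-fold). *Ap1m2*, the μ subunit of the adaptor complex of epithelial cells, had 165, 283 and 194 in AFSCs and 0.755, 0 and 1.1 in EpiSCs, with 3 counts in EpiSCs in all and a ratio of 367 (95% counting interval 125 to 1785). *Repin1*, a zinc finger gene, had 27.8, 42.5 and 43 in AFSCs and 0, 0.222 and 0 in EpiSCs and 1 count in EpiSCs, a ratio of 449.9 (95% counting interval 80.3 to 17816), and EpiLCs had 44.8. *Tcfl5*, a bHLH gene, had 244, 193 and 170.5 in AFSCs and 1.66, 0.557 and 0.603 in EpiSCs (log2 fold change 7.83 ± 0.28 (SE), adjusted p = 2.52e-13).

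The first 10 in the fitted order towards EpiSCs were *Myod1*, *Nmral1*, *Penk*, *Fam84a*, *Ddit4l*, *Cdh15*, *Fitm1*, *Hexa*, *Aard* and *Emilin3*. For genes without a count in a group the fitted value depends on the prior count, so neither order is a ranking, and genes with a measured fold such as *Krt19* and *Pmaip1* may differ by more than some of those named. *Myod1* (ENSMUSG00000009471, chromosome 7 from 46376474 to 46379099, plus strand), the bHLH factor that determines skeletal muscle, had 269, 256 and 265 in EpiSCs and no count in any AFSC library, at least 419-fold higher, and 1.22 ± 0.643 (SD, n = 3) in EpiLCs. *Cdh15* (M-cadherin), the cadherin of myoblasts, had 50.1, 52.3 and 45.5 in EpiSCs and no count in AFSCs (at least 137-fold). *Fitm1*, a lipid droplet gene of muscle, had 0, 1.19 and 0 in AFSCs and 316, 298 and 334 in EpiSCs, with a ratio of 786 (95% counting interval 141 to 31084) on 1 count in AFSCs. *Penk*, the precursor of enkephalin peptides, had 177, 139 and 183 in EpiSCs and no count in AFSCs (at least 231-fold).

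The levels of whole chromosomes differed between the groups. Over 12115 genes expressed in every sample, levels were set against the mean of the ESC and EpiLC samples, and the median was taken for each chromosome and sample, relative to the autosomal median. Genes of chromosome 11 were shifted up in AFSCs, with medians of 0.28, 0.38 and 0.34, against -0.06, -0.04 and -0.06 in EpiSCs on the log2 scale. All 12 windows of 10 Mb on this chromosome with at least 20 genes had a median above 0 in AFSCs (range 0.14 to 0.48). Of 1377 genes tested there, 560 (40.7%) were called higher in AFSCs and 114 (8.28%) higher in EpiSCs, against 21.6% and 17.8% of all genes.

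Chromosome 12 showed the reverse, with 0.56, 0.55 and 0.56 in EpiSCs and 0.19, 0.22 and 0.25 in AFSCs, so that both groups lay above the reference and EpiSCs lay higher. Its 10 windows were all above 0 in EpiSCs (0.27 to 0.75) and 9 of them in AFSCs, and 229 of its 591 genes (38.7%) were called higher in EpiSCs. On chromosome 10, AFSC medians were 0.17, 0.16 and 0.16 and EpiSC medians -0.04, -0.03 and -0.05, with 233 of 791 genes (29.5%) higher in AFSCs. The group means of the other autosomes lay between -0.16 and 0.08 in AFSCs and between -0.08 and 0.15 in EpiSCs. The samples of the 2 groups did not overlap on chromosomes 10, 11 and 12, and nor did they on 6 of the 16 other autosomes, with smaller differences on 5 of these and one as large as that of chromosome 10 on chromosome 13 (-0.07, -0.19 and -0.21 in AFSCs, 0.07, 0.02 and 0.05 in EpiSCs). The median fitted log2 fold change was 0.20, 0.40 and -0.39 on chromosomes 10, 11 and 12, -0.03 on chromosome 13 and -0.23 on chromosome 14. An exact permutation test of 3 samples against 3 cannot go below 0.1. With genes of chromosomes 10, 11 and 12 left out of the fit, 5312 genes were called and 844 passed the thresholds. DNA copy number was not analysed here.

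**Figure D5:**
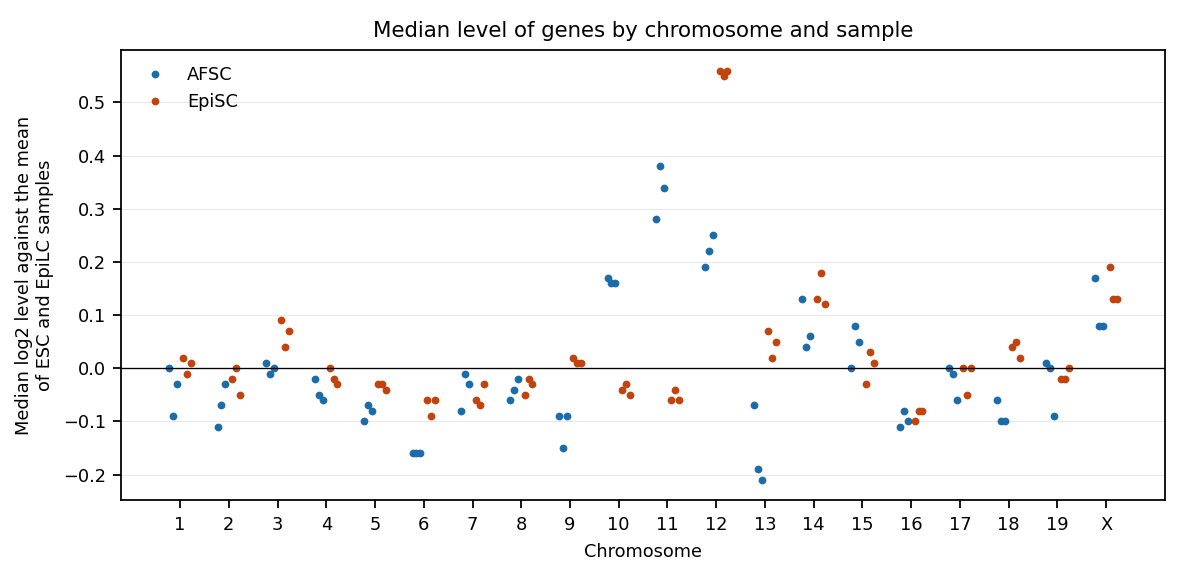
Median log2 level of genes on each chromosome in AFSC (blue) and EpiSC (orange) samples, against the mean of the ESC and EpiLC samples and relative to the autosomal median of each sample. AFSC samples lie at 0.28 to 0.38 on chromosome 11, and EpiSC samples at 0.55 to 0.56 on chromosome 12.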

How the data were processed

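Directional polyA RNA-seq libraries were sequenced from both ends. The authors mapped them to GRCm38 with TopHat2 and deposited raw counts of fragments per gene from featureCounts 1.5.0-p1 (Ensembl release 86), without strand and with multi-mapping and overlapping fragments counted at each place or gene. Genes that overlap or are near copies therefore share counts.

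Groups followed the sample labels (3 samples each), since the table names use another word for AFSCs. The 16901 of 35773 genes that reached 10 counts in 3 or more of the 18 samples were tested in R 4.3.3 with edgeR 4.0.16 (TMM, all 18 samples, robust quasi-likelihood fit, Benjamini-Hochberg adjustment). A standard error is the log2 fold change divided by the square root of F. Levels are counts per kb of exonic length, scaled by size factors from DESeq2 1.42.0, with a pseudocount of 0.1 on the log2 scale. Called means an adjusted p below 0.05, and past the thresholds adds a difference of more than 2 log2 units and a mean log2 level over 3 in one of the groups. Lists are described by counts and medians. A fold against a group at 0 was bounded by 3 counts over the group, which, like the 95% exact intervals, covers counting error only. Scripts were tested on simulated data. The comparison, lists and naming rule (genes the study names, the 10 largest differences each way, and the members of each list with the largest differences or highest levels) were chosen with earlier results of these data known.

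Depth was 6976376 to 9742624 counts in the 6 samples, which leaves genes of a few counts without a firm fold. Alternatives were DESeq2, other scalings and filters, fits of the 6 samples only, a replicate block and leaving out each sample. Figures were drawn with matplotlib 3.10.9 in Python 3.11.15. Promoter windows came from RefSeq (GRCm38.p6). No sample was left out, and methylation data were not analysed here.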

Additional observations from a re-analysis of the deposited data

How the results depend on the processing

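The count of genes called lay between 5185 (only the 6 samples fitted) and 7148 (without AFSC replicate 1) and stayed within 1.5 times of 6659 in every alternative, and leaving out a sample gave 5587 to 7148. The count past the thresholds was 984 to 1055 when a sample was left out. By construction it moved with the fold required, to 2541 (1507 higher in AFSCs, 1034 in EpiSCs) beyond 1 and to 531 (297 and 234) beyond 3. X-linked genes called ranged from 160 to 238. DESeq2 called 8031 genes for AFSCs and 8289 for EpiSCs against EpiLCs. The medians of chromosomes 10, 11 and 12, relative to the other autosomes, were 0.13 to 0.21, 0.31 to 0.43 and -0.45 to -0.30 over the fits, in the same direction in each. Mitochondrial genes left out gave 6690 calls. This alternative and the one without chromosomes 10, 11 and 12 were chosen after seeing the data.

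Over all genes tested, directions reversed only without AFSC replicate 1, for 33 genes called in 1 of the fits and 0 called in both. Those among the 704 genes of the lists and named groups were mitochondrially encoded, and without this sample the log2 fold changes of *mt-Nd1*, *mt-Nd2*, *mt-Nd3*, *mt-Nd4*, *mt-Nd4l*, *mt-Nd5*, *mt-Nd6*, *mt-Co2*, *mt-Co3*, *mt-Atp6*, *mt-Atp8* and *mt-Cytb* were -1.69, -1.75, -1.99, -1.31, -1.25, -1.66, -1.71, -1.13, -1.46, -1.36, -1.74 and -1.66, in this order. Leaving out one of the other samples gave highest values of 0.62, 1.13, 0.73, 1.30, 1.32, 1.04, 1.09, 1.03, 0.85, 1.38, 1.40 and 0.61. Of 418 called genes of the lists and named groups, 347 kept their call under every alternative that gave them a value. Whether the replicate numbers pair the samples was not settled. Deviations from the group means of equally numbered AFSC and EpiSC samples correlated at 0.288, 0.225 and -0.157. Those of unequally numbered samples correlated at -0.413 to 0.339. Replicate 1 had the highest mitochondrial share in AFSCs (14.4%) and in EpiSCs (4.59%). The same held in ASCs (3.48%), EpiLCs (4.31%) and ESCs (8.08%), but not in ESC-ASCs (1.74%, against 1.96% in replicate 2). Whether equally numbered samples were handled together was not stated, and the main fit did not use the replicate numbers. With a replicate block, 7097 genes were called and 991 passed the thresholds, or 5683 and 901 with only the 6 samples, and over all 18 samples the block added 489 calls and removed 51. Depth limits genes with a few counts in a group, where no firm fold can be given.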

Other observations

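A list of skeletal muscle genes was drawn up after *Myod1* and *Cdh15* had been seen among the genes with the largest differences, and its counts support nothing by themselves. Of 18 such genes tested, 3 were higher in AFSCs, 13 were higher in EpiSCs and 2 did not pass the test (median log2 fold change -3.68). *Actc1*, the cardiac α-actin of early muscle, had normalized read counts per kb of 3.33, 9.3 and 8.96 in AFSCs and 483, 501 and 507 in EpiSCs (log2 fold change -6.04 ± 0.28 (SE), adjusted p = 2.15e-09). The slow troponin genes *Tnnt1*, with 17.7, 11 and 5.64 in AFSCs and 732, 558 and 626 in EpiSCs (log2 fold change -5.82 ± 0.27 (SE), adjusted p = 8.27e-12), and *Tnnc1*, with 7.76, 5.56 and 2.99 in AFSCs and 141, 112 and 146 in EpiSCs (log2 fold change -4.61 ± 0.37 (SE), adjusted p = 1.06e-08), and the myoglobin gene *Mb* (log2 fold change -4.55, adjusted p = 9.31e-09) were also higher in EpiSCs. Against this direction, *Tnnc2*, which encodes the fast muscle troponin C, was higher in AFSCs, with 26.9, 44.9 and 23.3 in AFSCs and 6.56, 6.61 and 5.97 in EpiSCs (log2 fold change 2.30 ± 0.44 (SE), adjusted p = 0.00031). *Myog* had 0, 0 and 0 in AFSCs and 1.76, 3.54 and 7.66 in EpiSCs and *Myf5* 1.29, 0.556 and 0.995 in AFSCs and 0, 0 and 0.458 in EpiSCs, and the muscle list summed to 177 to 187 in AFSCs and 2078 to 2309 in EpiSCs.

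Genes of retinoic acid metabolism and signalling were listed in the same way after the values were known. Of 19 tested, 3 were higher in AFSCs, 9 were higher in EpiSCs and 7 did not pass the test (median -0.77). *Cyp26a1*, which degrades retinoic acid, had 2.28, 0 and 2.34 in AFSCs and 118, 102 and 119.5 in EpiSCs (log2 fold change -6.13 ± 0.40 (SE), adjusted p = 7.40e-10). The TALE homeobox genes *Meis1* (log2 fold change -2.69, adjusted p = 2.71e-07) and *Meis2* (log2 fold change -2.90, adjusted p = 2.60e-11) and the receptor gene *Rxrg*, with 19.3, 24.2 and 23 in AFSCs and 82.3, 70.2 and 74.4 in EpiSCs (log2 fold change -1.75 ± 0.24 (SE), adjusted p = 1.97e-05), were higher in EpiSCs, whereas *Rarg* (log2 fold change 0.97, adjusted p = 0.000686) and *Aldh1a3* (log2 fold change 1.83, adjusted p = 1.20e-05) were higher in AFSCs.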
